A study of Homo sapiens with 9 samples.

Results

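The transcription factor NRF2 (gene NFE2L2), its inhibitor KEAP1 and 7 genes of the oxidative stress response (HMOX1, NQO1, GCLM, GCLC, TXN, TXNRD1 and SRXN1) were followed in 3 human leukaemia cell lines after short treatment with a histone deacetylase (HDAC) inhibitor. All probes whose platform symbol is one of these 9 names were taken, which gave 10 of the 22177 probes measured. All 9 genes passed the detection filter and stood among the 11228 genes tested.

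The 9 arrays held 1 sample each of NB4, K562 and U937 cells that had received SAHA at 5 µM, MS-275 at 5 µM or no inhibitor, with RNA collected after 6 h. NB4 was derived from an acute promyelocytic leukaemia, K562 from the blast crisis of a chronic myeloid leukaemia and U937 from a monocytic tumour, and the labels name no engineered change in any of them. The hydroxamic acid SAHA, or vorinostat, inhibits zinc-dependent HDACs broadly, whereas the benzamide MS-275, or entinostat, is selective for class I enzymes. The solvent was DMSO, which the labels do not mention for the untreated cells, and its effect cannot be told apart from that of the inhibitors.

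In unstressed cells KEAP1 holds NRF2 in the cytoplasm and passes it to a ubiquitin ligase for degradation. Oxidants and electrophiles modify cysteines of KEAP1, after which NRF2 accumulates, pairs with a small MAF protein in the nucleus and binds antioxidant response elements near its target genes. NRF2 is therefore regulated largely at the level of protein, which arrays of RNA do not measure. Its targets include heme oxygenase, quinone reductase, the enzymes that make glutathione and the thioredoxin system, and in myeloid cells they act against the oxidants that phagocytes themselves produce.

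The core of the antioxidant response element was searched for as TGACNNNGC on both strands, from 250 bases before to 50 after each annotated start, in RefSeq promoters of GRCh38.p14. Windows were present for 8 of the 9 genes, HMOX1 being the one not matched. These genes had 11 windows, of which 4 held a match, compared with 13.3% of all 35116 promoter windows. By gene, KEAP1, GCLM and TXNRD1, or 3 of the 8, had a match in some window, compared with 16.1% of all 27305 genes. The windows of KEAP1 (chr19:10502722-10503021, minus strand), NQO1 (chr16:69726511-69726810, minus strand) and GCLM (chr1:93909381-93909680, minus strand) are printed on the strand of the gene because these are the genes whose transcripts fell with SAHA. Capitals mark matches on either strand.
KEAP1 promoter: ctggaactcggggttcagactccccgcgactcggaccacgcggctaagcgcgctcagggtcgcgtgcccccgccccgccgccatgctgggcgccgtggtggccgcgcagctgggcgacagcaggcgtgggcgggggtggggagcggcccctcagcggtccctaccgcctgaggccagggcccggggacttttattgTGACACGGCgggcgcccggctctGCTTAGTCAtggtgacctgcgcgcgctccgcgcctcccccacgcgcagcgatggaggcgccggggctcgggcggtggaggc
NQO1 promoter: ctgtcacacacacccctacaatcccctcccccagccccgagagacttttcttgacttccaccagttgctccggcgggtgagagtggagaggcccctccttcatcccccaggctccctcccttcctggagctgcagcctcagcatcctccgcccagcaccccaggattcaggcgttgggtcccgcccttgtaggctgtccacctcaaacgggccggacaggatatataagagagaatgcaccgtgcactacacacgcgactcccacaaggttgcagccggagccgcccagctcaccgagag
GCLM promoter: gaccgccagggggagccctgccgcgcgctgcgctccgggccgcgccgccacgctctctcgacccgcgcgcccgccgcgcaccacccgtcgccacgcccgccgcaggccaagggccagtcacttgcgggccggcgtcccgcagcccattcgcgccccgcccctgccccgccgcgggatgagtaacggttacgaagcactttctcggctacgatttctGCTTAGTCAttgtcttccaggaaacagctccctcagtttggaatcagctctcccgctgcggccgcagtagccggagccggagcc

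KEAP1 had a match at −54 to −46 and another at −31 to −23 from its start, and a second annotated KEAP1 window had none. GCLM had a match at −34 to −26. The letters GCTTAGTCA, which read TGACTAAGC on the opposite strand, were the same in the second KEAP1 match and in GCLM. NQO1 had no match in this window. TXNRD1, the gene that was higher with SAHA than with MS-275, had matches at −99 to −91 and −8 to 1 of one start (chr12:104215529-104215828, plus strand) and at −102 to −94 of another (chr12:104286782-104287081, plus strand). They are shown with their flanks, capitals again marking the match.
TXNRD1 first start, upstream match: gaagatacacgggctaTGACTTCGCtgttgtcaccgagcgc
TXNRD1 first start, match at the start: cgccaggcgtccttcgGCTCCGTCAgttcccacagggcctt
TXNRD1 second start: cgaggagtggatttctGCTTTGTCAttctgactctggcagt

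The fully spelled form TGACTCAGC, which contains an AP-1 motif, was found in 0 of the 11 windows and in 0.561% of all windows. Among 21 other genes of the NRF2 target list with a window, 8 held TGACNNNGC and 3 held TGACTCAGC. By gene, the shares over all 27305 genes were 16.1% for TGACNNNGC and 0.689% for TGACTCAGC. A match describes letters within this window and not a site that was bound.

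The lines were checked against their defining markers. In K562 all 7 erythroid markers measured were detected on its 3 arrays, and in NB4 5 of 6 promyelocytic markers were, with myeloperoxidase (MPO) at a mean log2 intensity of 14.8 in NB4 and not detected in K562 or U937. In U937 5 of 6 monocytic markers were detected on all 3 arrays, and CD14 on 2 of 3. U937 also had 5 of 6 promyelocytic markers, NB4 5 of 6 monocytic markers and K562 4 of 6 epithelial and stromal markers. By level the promyelocytic list did not mark NB4, as its median log2 intensity was 10.8 in NB4 and 13.2 in U937. MPO alone was higher in NB4, whereas ELANE, AZU1, PRTN3, CTSG and CEBPE were higher in U937. Markers of T and B lymphocytes were detected on all arrays of the line for 2 of 5 genes in NB4, 0 of 5 in K562 and 1 of 5 in U937. Median raw intensity was 104 to 139 per array, and 11826 to 12705 probes were detected on an array.

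Treated and untreated arrays were compared within lines with limma, and a gene was called at an adjusted p under 0.05 over all 11228 genes. With SAHA, 3 of the 9 genes fell (KEAP1, NQO1 and GCLM) and 0 rose, against a background of 11.8% of all genes called lower and 12.0% called higher. With MS-275, KEAP1 was the 1 gene that fell and 0 rose, against 7.46% of all genes called lower and 4.34% called higher. At an unadjusted p under 0.05, 1 of the 9 was higher (TXNRD1) and 4 were lower with SAHA, against 18.9% and 18.0% of all genes. At the same level 1 was higher (SRXN1) and 1 lower with MS-275, against 13.2% and 17.2% of all genes. The median log2 change of the 9 genes was 0.05 with SAHA and −0.08 with MS-275, beside −0.01 and −0.02 over all genes tested. The genes thus did not move as a block, and neither inhibitor gave a called rise of any NRF2 target among them.

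Of all genes called, 50.4% were higher with SAHA and 36.8% with MS-275. When arrays were scaled to equal medians in place of quantiles these shares were 35.6% and 16.8%, and the median of all genes shifted to −0.09 with SAHA and −0.14 with MS-275. The 3 untreated arrays are shared by both of these comparisons. One array stands for each line and treatment, and separate cultures are not stated, so p-values rest on differences in response between these lines. For each gene this spread was pooled over all treatments and moderated by limma towards that of all genes. It is therefore not the spread of the particular response tested. NQO1, for example, has an SE of 0.15 with either inhibitor, although its changes with MS-275 ran only from 0.05 to 0.19 over the lines.

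**Figure D1:**
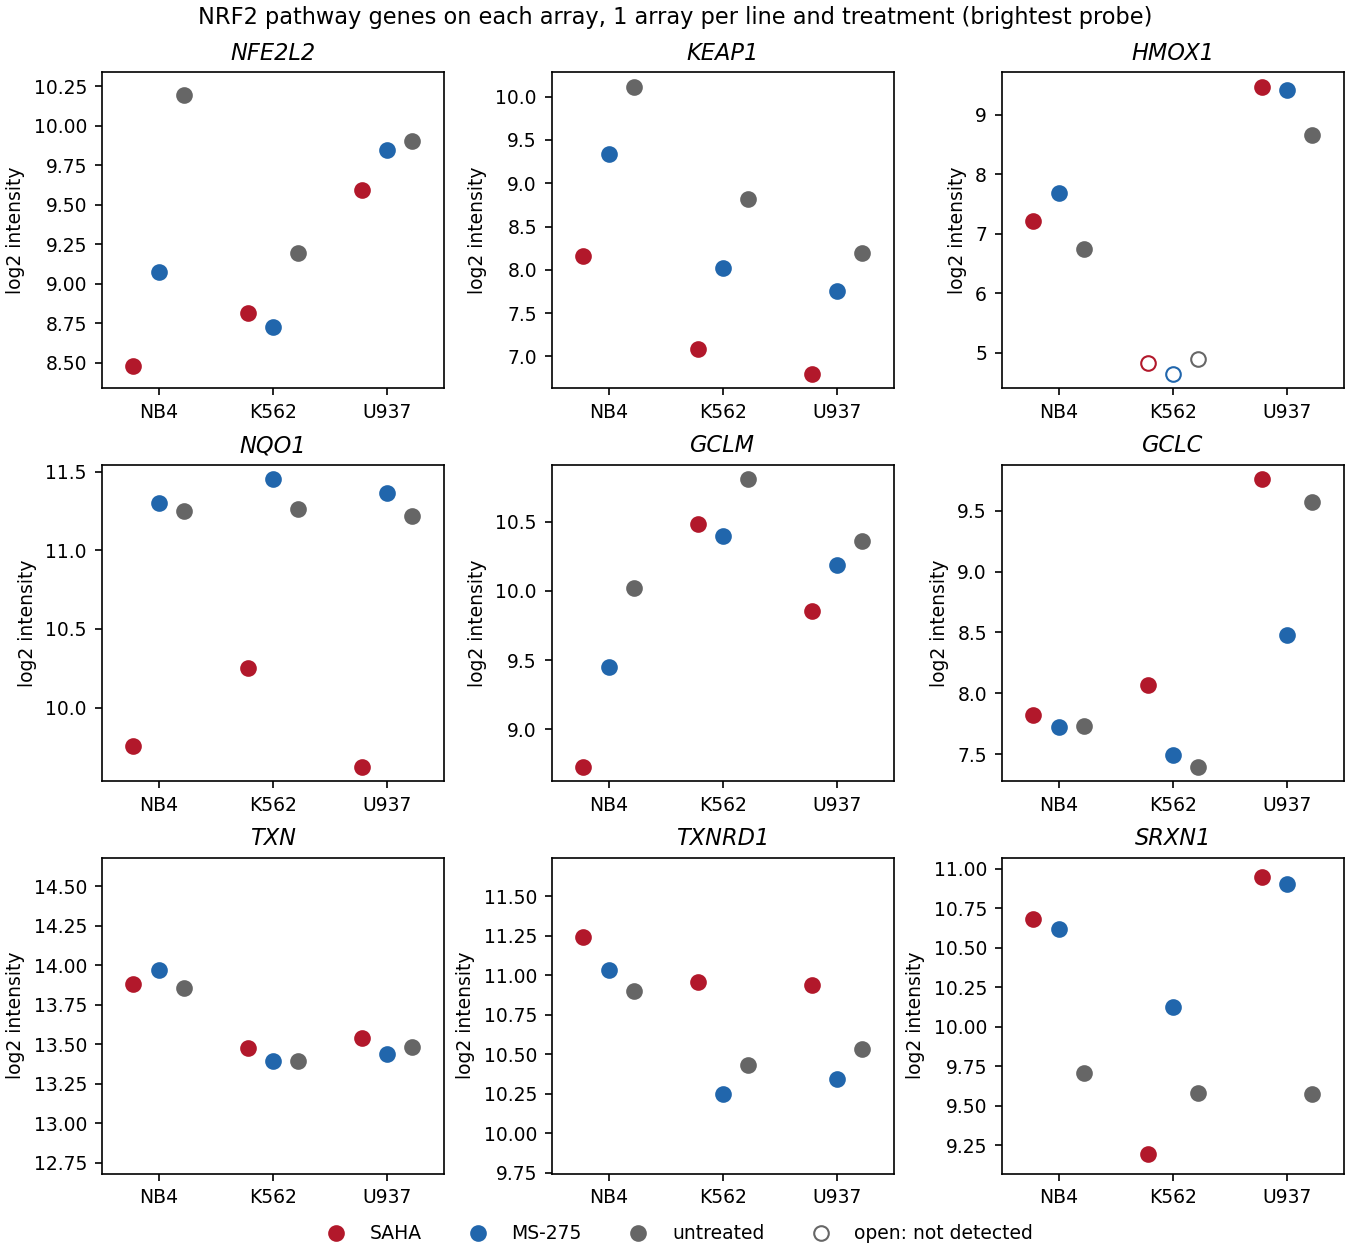
Log2 intensity (vertical axes) of the brightest probe of each of the 9 genes by cell line, with SAHA (red), MS-275 (blue) and untreated (grey) arrays side by side, 1 point per array; open points were not detected. KEAP1 and NQO1 have the SAHA point lowest in all 3 lines, and HMOX1 is not detected on any K562 array.

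NFE2L2, which encodes NRF2, was lower with SAHA by a size that did not pass the test. In NB4 it had log2 intensities of 8.48 with SAHA, 9.08 with MS-275 and 10.20 untreated. In K562 the values were 8.81 with SAHA, 8.72 with MS-275 and 9.20 untreated. In U937 they were 9.59 with SAHA, 9.84 with MS-275 and 9.90 untreated. Every treated array was below the untreated array of its line. The groups still overlapped, because untreated K562 (9.20) lay below the U937 arrays with SAHA (9.59) and MS-275 (9.84). The log2 change was −0.80 ± 0.27 (SE) with SAHA (adjusted p = 0.0749 by limma) and −0.55 with MS-275 (adjusted p = 0.223). The SAHA change passed with arrays scaled to equal medians (−1.003, adjusted p = 0.0419) and with only genes detected on all 9 arrays (−0.80, adjusted p = 0.0473). Without NB4 it was −0.35 (adjusted p = 0.304).

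The line with the widest gap in NFE2L2 was NB4, where the log2 change with SAHA was −1.72, and the narrowest gap was in U937 at −0.31. The dependence of the response on the line was tested with an F test in limma that takes both inhibitors as repeats of one treatment, and so does not test the SAHA response alone. It gave an unadjusted p of 0.0979 for NFE2L2 and an adjusted p of 1. That test called 0 of 11228 genes after adjustment and 171 at an unadjusted p under 0.05, and 0 of the 9 genes here reached that unadjusted level.

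KEAP1, the substrate adaptor through which NRF2 is degraded, fell with both inhibitors and furthest with SAHA. In NB4 its log2 intensity was 8.16 with SAHA, 9.33 with MS-275 and 10.12 untreated. In K562 it was 7.08 with SAHA, 8.03 with MS-275 and 8.82 untreated. In U937 it was 6.80 with SAHA, 7.76 with MS-275 and 8.20 untreated. The order was the same in all 3 lines, with SAHA lowest, MS-275 between and untreated highest. The 3 SAHA arrays did not overlap the 3 untreated arrays, while the MS-275 arrays did.

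The log2 change of KEAP1 was −1.70 ± 0.14 (SE) with SAHA, or 3.24-fold lower (adjusted p = 0.00147), and −0.67 ± 0.14 with MS-275, or 1.59-fold lower (adjusted p = 0.0312). Over the lines the change with SAHA ran from −1.96 to −1.40 and with MS-275 from −0.79 to −0.43. The SAHA call remained without each line in turn, whereas the MS-275 call was lost without NB4 (−0.61, adjusted p = 0.157), without K562 (−0.61, adjusted p = 0.155) and without U937 (−0.79, adjusted p = 0.107). Over all genes, the count called lower with MS-275 was 838 with all lines, 0 without NB4, 104 without K562 and 0 without U937. In bulk RNA, fewer expressing cells and less RNA per cell cannot be told apart, here or for the other genes.

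A second KEAP1 probe was detected on 1 of 9 arrays, NB4 untreated, at a log2 intensity of 5.66, and had 4.77 to 5.01 on the other arrays. It did not pass the detection filter. With no filter its log2 change was −0.40 with SAHA (adjusted p = 0.218) and −0.36 with MS-275 (adjusted p = 0.296), so the calls for KEAP1 rest on 1 probe.

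HMOX1, the heme oxygenase that degrades heme to biliverdin, iron and carbon monoxide, showed the widest spread between lines. In NB4 its log2 intensity was 7.22 with SAHA, 7.69 with MS-275 and 6.74 untreated. In U937 it was 9.47 with SAHA, 9.42 with MS-275 and 8.65 untreated. In K562 it was not detected on any array and the signals of 4.84 with SAHA, 4.65 with MS-275 and 4.90 untreated are background. Both treated arrays lay above the untreated one in NB4 and in U937. Across all lines the log2 change was 0.41 ± 0.24 (SE) with SAHA (adjusted p = 0.268 by limma) and 0.48 with MS-275 (adjusted p = 0.222). Without K562 it was 0.65 with SAHA (adjusted p = 0.0843) and 0.85 with MS-275 (adjusted p = 0.0834), neither of which passed.

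NQO1, a quinone reductase often used as a readout of NRF2 activity, fell with SAHA in every line. In NB4 its log2 intensity was 9.76 with SAHA, 11.30 with MS-275 and 11.25 untreated. In K562 it was 10.25 with SAHA, 11.45 with MS-275 and 11.26 untreated. In U937 it was 9.63 with SAHA, 11.37 with MS-275 and 11.22 untreated. All SAHA arrays lay below all others, and the MS-275 arrays lay narrowly above the untreated arrays.

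The log2 change of NQO1 was −1.36 ± 0.15 (SE) with SAHA, or 2.57-fold lower (adjusted p = 0.00211 by limma), with a range over lines of −1.59 to −1.01. This call remained without each line in turn. With MS-275 the change was 0.13, with a range of 0.05 to 0.19, and did not pass (adjusted p = 0.592); with arrays scaled to equal medians it was −0.16.

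GCLM, the modifier subunit of the ligase that makes the first intermediate of glutathione, fell with SAHA. NB4 cells had log2 intensities of 8.73 with SAHA, 9.45 with MS-275 and 10.02 untreated. K562 cells had 10.49 with SAHA, 10.39 with MS-275 and 10.81 untreated. U937 cells had 9.85 with SAHA, 10.19 with MS-275 and 10.36 untreated. Each treated array was below the untreated array of its line, although the groups overlapped across lines. The log2 change was −0.70 ± 0.20 (SE) with SAHA, or 1.63-fold lower (adjusted p = 0.0440 by limma), and −0.38 with MS-275 (adjusted p = 0.247). Over all genes, 1323 were called lower with SAHA with all lines, 481 without NB4, 835 without K562 and 522 without U937. The GCLM call was lost without NB4 (−0.41, adjusted p = 0.231), without K562 (−0.90, adjusted p = 0.0589) and without U937 (−0.80, adjusted p = 0.143). By limma it was also lost with no detection filter (adjusted p = 0.0668) and without the line term (adjusted p = 0.7505).

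GCLC, the catalytic subunit of the same ligase, passed no test between treatments. NB4 cells had log2 intensities of 7.82 with SAHA, 7.72 with MS-275 and 7.73 untreated. K562 cells had 8.07 with SAHA, 7.49 with MS-275 and 7.40 untreated. U937 cells had 9.76 with SAHA, 8.48 with MS-275 and 9.58 untreated. The log2 change with MS-275 was −1.10 in U937, whereas it was −0.0073 in NB4 and 0.093 in K562. The log2 change was 0.32 with SAHA (adjusted p = 0.427 by limma) and −0.34 with MS-275 (adjusted p = 0.412).

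TXN, thioredoxin itself, was nearly level between treatments. Its log2 intensity ranged from 13.48 to 13.88 with SAHA, from 13.39 to 13.97 with MS-275 and from 13.39 to 13.86 untreated. The groups overlapped fully, and the log2 changes were 0.05 with SAHA (adjusted p = 0.779 by limma) and 0.02 with MS-275 (adjusted p = 0.906).

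TXNRD1, the cytosolic reductase that returns thioredoxin to its reduced form, had its highest value with SAHA in each line. In NB4 its log2 intensity was 11.24 with SAHA, 11.03 with MS-275 and 10.90 untreated. In K562 it was 10.96 with SAHA, 10.25 with MS-275 and 10.43 untreated. In U937 it was 10.94 with SAHA, 10.35 with MS-275 and 10.54 untreated. The 3 SAHA arrays lay above the 3 untreated arrays without overlap. The log2 change with SAHA was 0.42 ± 0.14 (SE), with a range over lines of 0.34 to 0.53, and missed the threshold (adjusted p = 0.0643 by limma). It passed in 4 alternative settings, at adjusted p-values from 0.0363 to 0.0443, and with arrays scaled to equal medians it was 0.23 (adjusted p = 0.245). With MS-275 the change was −0.08 (adjusted p = 0.729).

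SRXN1, sulfiredoxin, which repairs over-oxidized peroxiredoxins, was higher than untreated with either inhibitor in NB4 and U937. In K562 it was higher with MS-275 but lower with SAHA. NB4 cells had log2 intensities of 10.68 with SAHA, 10.62 with MS-275 and 9.71 untreated. U937 cells had 10.95 with SAHA, 10.90 with MS-275 and 9.58 untreated. K562 cells had 9.20 with SAHA, 10.13 with MS-275 and 9.58 untreated. The K562 array with SAHA was thus the lowest of all 9, and all MS-275 arrays lay above all untreated ones.

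The log2 change of SRXN1 was 0.65 ± 0.31 (SE) with SAHA (adjusted p = 0.168 by limma) and 0.93 ± 0.31 with MS-275 (adjusted p = 0.0915). Over the lines it ran from −0.38 to 1.37 with SAHA and from 0.55 to 1.32 with MS-275. Without K562 the SAHA change was 1.17 and passed (adjusted p = 0.0210). With 1 array per line and treatment, the difference between lines in the response to SAHA was not tested.

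**Figure D2:**
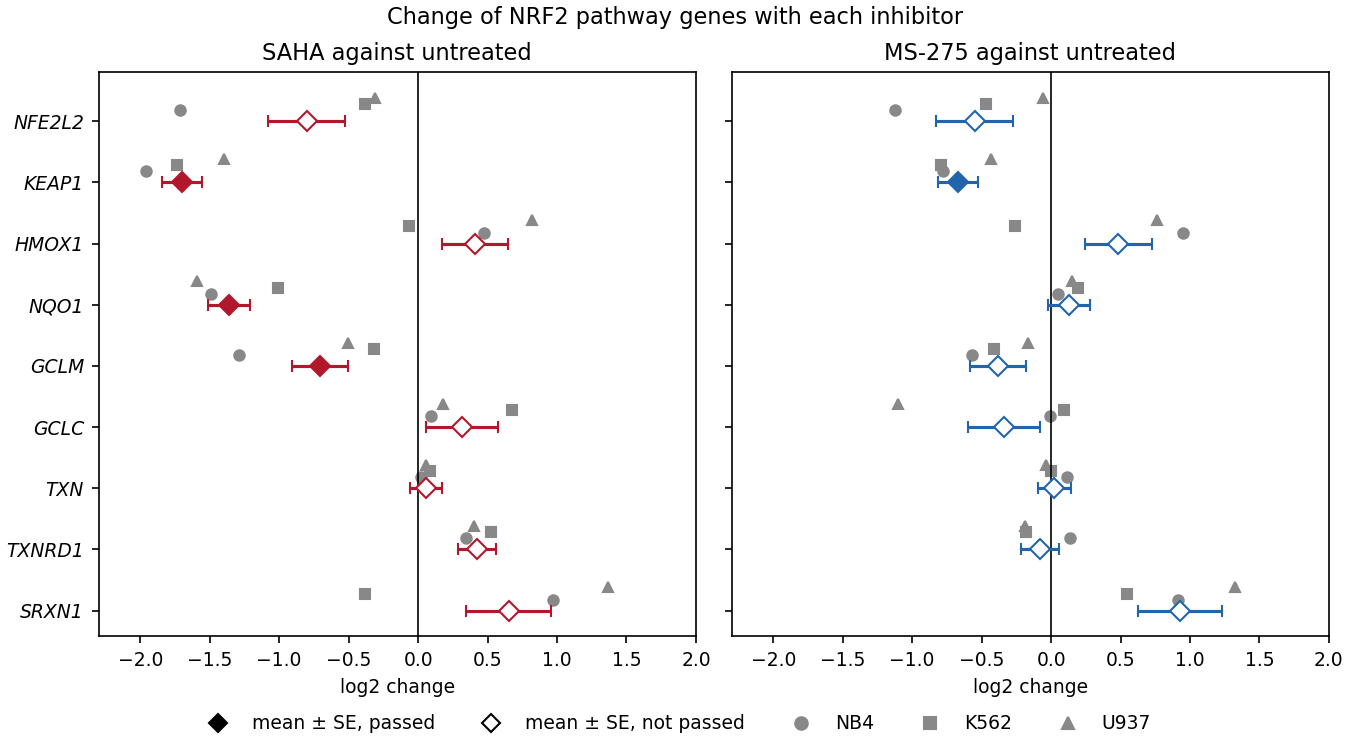
Log2 change (horizontal axes) against untreated cells with SAHA (left) and MS-275 (right). Diamonds are the mean over 3 lines with the SE of the limma model, filled where the adjusted p was under 0.05. Grey markers are the single lines. KEAP1, NQO1 and GCLM are filled with SAHA and KEAP1 alone with MS-275. The HMOX1 means include K562, where it was not detected.

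SAHA and MS-275 were then compared directly, at the same dose and time, for this 1 pair of compounds and 9 genes. KEAP1 and NQO1 were lower and TXNRD1 was higher with SAHA than with MS-275, against 10.2% of all genes called lower and 13.4% called higher. NQO1 differed most, at −1.49 on the log2 scale (95% interval −1.85 to −1.14), or 2.82-fold lower with SAHA (adjusted p = 0.00226 by limma), without overlap of the arrays. KEAP1 differed by −1.03 (95% interval −1.37 to −0.69), or 2.04-fold lower with SAHA (adjusted p = 0.00451). Both calls remained without each line in turn.

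TXNRD1 was 1.42-fold higher with SAHA than with MS-275, a log2 difference of 0.50 (95% interval 0.18 to 0.83, adjusted p = 0.0384 by limma). Over all genes, 1506 were called higher with all lines, 534 without NB4, 973 without K562 and 309 without U937. The TXNRD1 call was lost without NB4 (0.65, adjusted p = 0.0713), without K562 (0.40, adjusted p = 0.193) and without U937 (0.46, adjusted p = 0.216). GCLC had a larger log2 difference of 0.65 (95% interval 0.05 to 1.26) that did not pass over all genes (adjusted p = 0.111).

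For the remaining genes the difference between the compounds did not pass, and the intervals state what sizes remain possible. They ran from −0.90 to 0.39 for NFE2L2, from −0.64 to 0.49 for HMOX1 and from −0.80 to 0.16 for GCLM. The HMOX1 interval includes K562, where its signals were background. For TXN the interval was −0.24 to 0.30, the narrowest of the 9, and for SRXN1 it was −0.99 to 0.44. The median log2 difference of the 9 genes was −0.25, beside −0.01 over all genes.

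**Figure D3:**
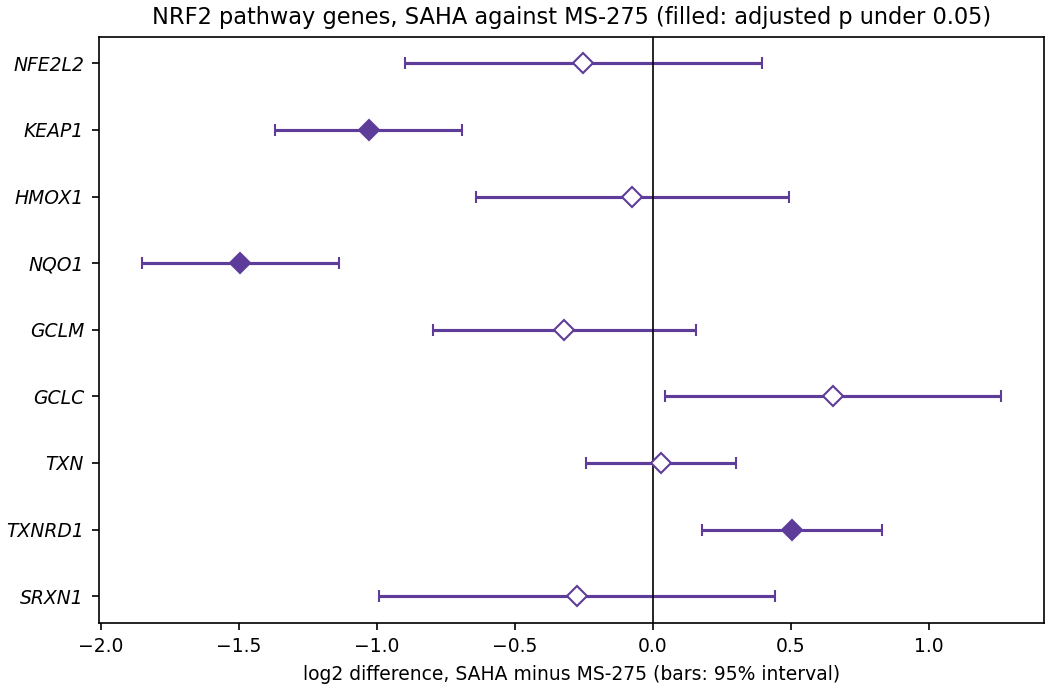
Log2 difference between SAHA and MS-275 arrays (horizontal axis, SAHA minus MS-275) for the 9 genes. Bars are 95% intervals of the limma model, and diamonds are filled where the adjusted p was under 0.05. NQO1 (−1.49) and KEAP1 (−1.03) lie to the left of 0 and TXNRD1 (0.50) to the right with filled diamonds. The HMOX1 interval includes K562, where it was not detected.

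Levels also differed between the lines, with the 3 arrays of a line pooled over treatments and the treatment effect fitted. These 3 arrays are different treatments, and separate cultures are not stated. The p-values between lines use the same pooled and moderated spread. They thus reflect how steady differences among all 3 lines were across treatments and not the spread between cultures of a line. Between NB4 and K562, 5 of the 9 genes differed, between NB4 and U937 6 did and between K562 and U937 3 did. The background was 50.4% of all genes between NB4 and K562, 44.8% between NB4 and U937 and 53.5% between K562 and U937, so these counts are of the size found for genes at large.

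HMOX1 separated the lines most. It averaged a log2 intensity of 7.22 in NB4 and 9.18 in U937, against a measured 4.80 in K562, where it was not well above background. The measured log2 difference was 2.42 for NB4 against K562 (adjusted p = 0.000176 by limma) and −4.39 for K562 against U937 (adjusted p = 7.64e-06). These tests used the K562 background signals as measured, and the bounds that follow were not tested. Taking the lowest detected signal of the K562 arrays as a bound, HMOX1 was at least 3.86-fold higher in NB4 and at least 15.05-fold higher in U937 than in K562. These bounds depend on the treatment of background. They were 2.53-fold for NB4 and 8.48-fold for U937 with an offset of 50, and 2.05-fold and 5.97-fold with the authors' deposited log2 values, which hold no background correction. Between NB4 and U937 the log2 difference was −1.96 (adjusted p = 0.000638).

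KEAP1 was highest in NB4, by 1.23 on the log2 scale over K562 (adjusted p = 0.000409 by limma) and by 1.62 over U937 (adjusted p = 0.000155), while K562 and U937 did not differ past the threshold (0.39, adjusted p = 0.0534, and 0.0463 with no detection filter or with detection on all 9 arrays). NFE2L2 was lower in K562 than in U937 (−0.87, adjusted p = 0.0311, and 0.0570 with no detection filter). The glutathione ligase subunits had different patterns over the lines. GCLM was lowest in NB4, by −1.16 against K562 (adjusted p = 0.00257) and −0.73 against U937 (adjusted p = 0.0221). Over the treatments this ran from −1.76 to −0.79 against K562 and from −1.12 to −0.34 against U937. Both gaps were narrowest in untreated cells. GCLC was highest in U937, the log2 difference being −1.51 for NB4 against U937 (adjusted p = 0.00293) and −1.62 for K562 against U937 (adjusted p = 0.00154).

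The thioredoxin genes were both highest in NB4. TXN was higher there than in K562 by 0.48 (adjusted p = 0.0109 by limma) and than in U937 by 0.41 (adjusted p = 0.0227) on the log2 scale, and the difference from U937 was lost without K562 (adjusted p = 0.0506). TXNRD1 was higher in NB4 by 0.51 than in K562 (adjusted p = 0.0182, and 0.0517 without U937) and by 0.45 than in U937 (adjusted p = 0.0328, and 0.0551 without K562). NQO1 and SRXN1 did not differ between any pair of lines past the threshold. The NQO1 differences were −0.22 for NB4 against K562, 0.03 for NB4 against U937 and 0.25 for K562 against U937, and those of SRXN1 were 0.70, −0.14 and −0.84 in the same order of pairs. For SRXN1 between K562 and U937 the adjusted p was 0.0510, and it was under the threshold in 4 of 7 alternative settings (0.0264 to 0.0498) and over all probes (0.0496).

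Other genes of the pathway were taken from lists that do not contain the 9 genes. Of the regulators and partners of NRF2, 10 of 15 were tested. With SAHA 1 rose and 4 fell (median log2 change −0.11), against 12.0% of all genes called higher and 11.8% called lower. NFE2, the erythroid and megakaryocytic relative of NRF2 that shares its small MAF partners, fell by 2.55 ± 0.27 (SE, adjusted p = 0.00191 by limma), with a range over lines of −3.12 to −1.96. MAFG, one of these partners, fell by 1.36 with SAHA (adjusted p = 0.00237) and by 0.77 with MS-275 (adjusted p = 0.0283). A dimmer MAFG probe gave −0.70 with SAHA (adjusted p = 0.0306 over probes) and −0.33 with MS-275 (adjusted p = 0.260). RBX1, the RING subunit of the ligase that KEAP1 serves, fell by 0.44 with SAHA (adjusted p = 0.0403).

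Of the other regulators, DPP3, which binds KEAP1, fell by 0.58 with SAHA (adjusted p = 0.0235), and SYVN1, an endoplasmic reticulum ubiquitin ligase that also acts on NRF2, rose by 0.85 (adjusted p = 0.0114, by limma). With MS-275, MAFG was the 1 gene of this list that fell and 0 rose, against 7.46% of all genes called lower and 4.34% called higher. At an unadjusted p under 0.05, 1 was higher and 3 were lower, against 13.2% and 17.2% of all genes. The median log2 change of the list was −0.21.

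Of the other NRF2 targets, 21 of 31 were tested. With SAHA 0 rose and 0 fell, against 12.0% of all genes called higher and 11.8% called lower. At an unadjusted p under 0.05, 3 were higher and 0 lower, against 18.9% and 18.0% of all genes. The median log2 change of the list was −0.03. With MS-275 2 rose and 0 fell (median 0.14), against 4.34% of all genes called higher and 7.46% called lower. The 2 were AKR1C3, an aldo-keto reductase, which rose by 1.37 (adjusted p = 0.0464 by limma) and was detected on 1 of 3 untreated arrays, and PIR, an iron-binding nuclear protein, which rose by 0.81 (adjusted p = 0.0149). PIR was lower with SAHA than with MS-275 (−0.85, adjusted p = 0.00559).

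Of the glutathione and thioredoxin enzymes, 23 of 30 were tested. With SAHA 4 rose and 1 fell (median 0.07), against 12.0% of all genes called higher and 11.8% called lower. With MS-275 2 rose and 0 fell (median 0.20), against 4.34% of all genes called higher and 7.46% called lower. GLRX, glutaredoxin, which reduces disulfides with glutathione, rose by 1.90 with SAHA (range over lines 0.96 to 2.61, adjusted p = 0.00533 by limma) and by 1.16 with MS-275 (adjusted p = 0.0477). MSRB1, a methionine sulfoxide reductase, rose by 0.64 (adjusted p = 0.0312), the microsomal transferase MGST3 by 0.57 (adjusted p = 0.0217) and the mitochondrial glutaredoxin GLRX5 by 0.52 (adjusted p = 0.0450) with SAHA. TXNRD2, the mitochondrial thioredoxin reductase, fell by 0.59 with SAHA (adjusted p = 0.0120). MGST2 rose by 0.68 with MS-275 (adjusted p = 0.0257).

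Of the other antioxidant and oxidative stress genes, 19 of 20 were tested. With SAHA 7 rose and 1 fell, against 12.0% of all genes called higher and 11.8% called lower. The median log2 change of the 19 was 0.37, beside −0.01 over all genes. SESN2 and SESN1, stress-induced proteins that restrain mTORC1 signalling, rose by 1.98 (adjusted p = 0.00214 by limma) and 1.70 (adjusted p = 0.00542). FOXO1, a transcription factor that drives antioxidant genes, rose by 1.64 (adjusted p = 0.00837), the superoxide dismutase copper chaperone CCS by 1.18 (adjusted p = 0.00492) and biliverdin reductase A (BLVRA) by 1.17 (adjusted p = 0.0116). PON2, a paraoxonase, fell by 1.61 (adjusted p = 0.00441). With MS-275 2 of these 19 genes rose and 0 fell, against 4.34% of all genes called higher and 7.46% called lower. SESN2 rose by 1.03 (adjusted p = 0.0312 by limma) and FOXO1 by 1.25 (adjusted p = 0.0389). At an unadjusted p under 0.05, 7 of the 19 were higher and 2 lower, against 13.2% and 17.2% of all genes. SESN2 and FOXO1 were each detected on 2 of 3 untreated arrays.

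Of the phagocyte NADPH oxidase genes, which produce superoxide, 5 of 8 were tested and 0 passed with either inhibitor. Over all genes, 12.0% were called higher and 11.8% lower with SAHA, and 4.34% and 7.46% with MS-275. At an unadjusted p under 0.05, 2 of the 5 were lower with SAHA, against 18.0% of all genes. With MS-275 1 was higher at that level, against 13.2% of all genes. The median log2 change was −0.41 with SAHA and 0.32 with MS-275. Compared directly, 3 were lower with SAHA than with MS-275, against 10.2% of all genes called lower and 13.4% called higher. By limma these were CYBB (−1.65, adjusted p = 0.0398), NCF4 (−1.08, adjusted p = 0.0204) and RAC2 (−0.55, adjusted p = 0.0290). Over the lines these differences ran from −2.66 to −0.40 for CYBB, −1.49 to −0.29 for NCF4 and −0.80 to −0.37 for RAC2. NCF4 was detected on 2 of 3 arrays with SAHA and 2 of 3 with MS-275. In the same comparison 2 of 10 regulators were higher and 4 lower with SAHA than with MS-275, and 0 of 21 other targets were higher and 1 lower. Of the glutathione and thioredoxin enzymes 2 of 23 were higher and 5 lower, and of the other antioxidant genes 4 of 19 were higher and 1 lower.

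**Figure D4:**
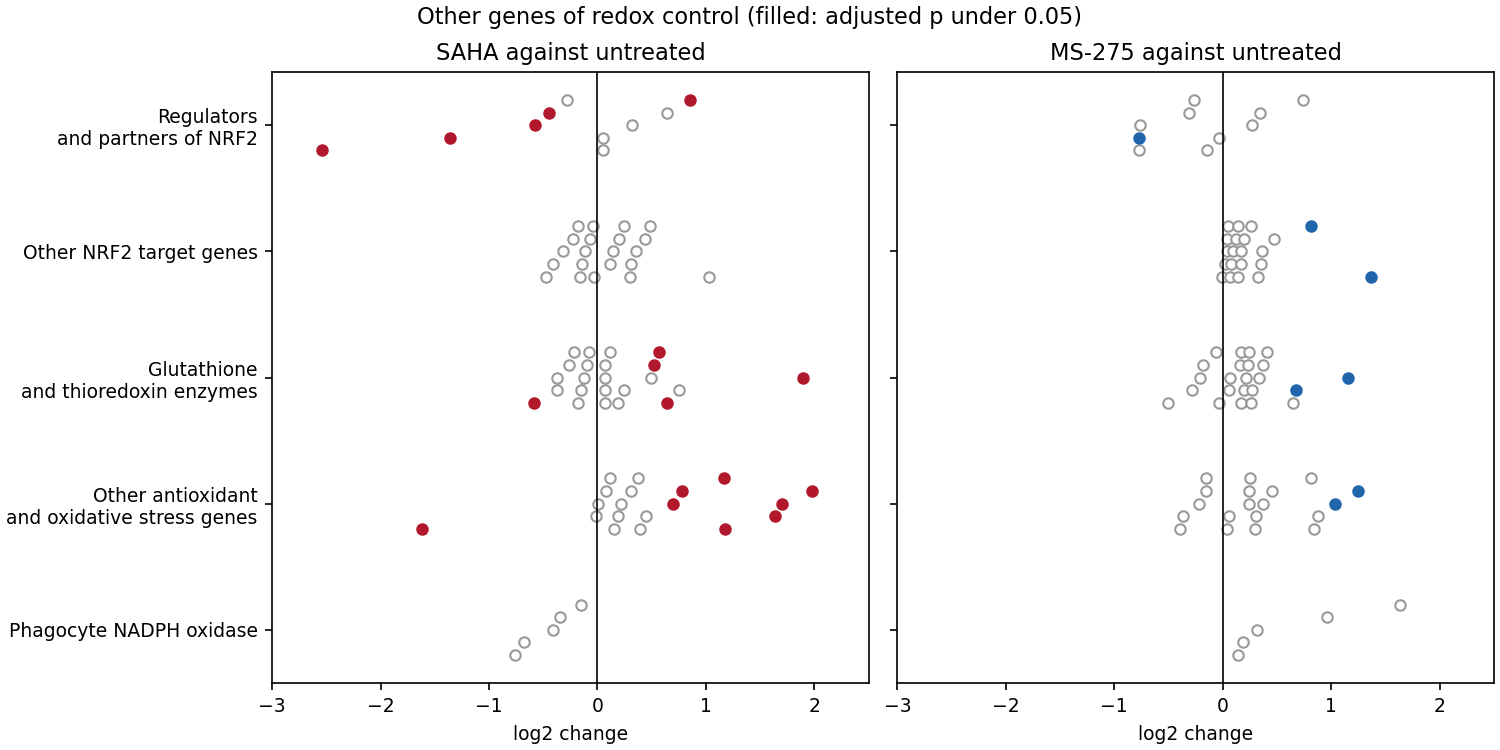
Log2 change (horizontal axes) of the tested genes in 5 lists of redox control, 1 point per gene, with SAHA (left) and MS-275 (right) against untreated cells; filled points had an adjusted p under 0.05 and vertical scatter within a list only separates points. With SAHA, 7 of 19 other antioxidant genes are filled on the right, against 12.0% of all genes called higher, and NFE2 at −2.55 lies farthest left.

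Likeness of pattern was described by Pearson's r across the 9 arrays after the mean of each line was removed. These points share the untreated arrays, the 3 treatments and the normalization. NFE2L2 was most like ZNF649 (r = 0.98), TGIF1 (r = 0.97) and ZNF595 (r = 0.97), none of which is among the genes above. HMOX1 was most like LSMEM1 (r = 0.99), EPS8 (r = 0.97) and TMEM14C (r = 0.96). HMOX1 was not detected on the K562 arrays, so those points of its pattern are background. Each set of genes was picked as the highest r among all genes tested, and these r values were not tested. Among the 9 genes themselves, the pairs at the extremes, chosen after their values were seen, were NFE2L2 with GCLM (r = 0.96) and NQO1 with TXNRD1 (r = −0.89).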

How the data were processed

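Biotinylated cRNA made from total RNA was measured on Illumina bead arrays, per the labels. The authors deposited a bead intensity table that was neither background-subtracted nor normalized, with a detection p-value for each intensity (found from the values, in steps of 1/708). Log2 values that the authors processed were deposited too; per the submitters' processing notes lumi was used, and these values equalled quantile-normalized log2 intensities within 0.0132. The 2 tables were linked by each probe's ranks on the arrays, with all 22177 probes matched, and gene symbols came from the platform annotation (19708 probes with 1 symbol, 0 with several, 2469 with none). The array's genome build is not given in the sources used here.

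Intensities were corrected with limma 3.58.1 (nec, negative controls inferred from detection p-values, offset 16), normalized by quantiles and log2-transformed in R 4.3.3. Probes with a detection p under 0.05 on at least 3 of 9 arrays were kept (13836), and each of 11228 genes was represented by its brightest probe. The limma model held treatment and cell line (4 residual degrees of freedom), with two-sided p-values adjusted by Benjamini and Hochberg over all genes. Line dependence was an F test of line by treated or not, with the inhibitors as repeats, with 3 residual degrees of freedom. Errors are standard errors of the model. The number of arrays, 3 per group, limits the precision.

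The labels number every array replicate 1, so arrays were paired by line, as 3 cell lines were used. After subtraction of treatment means, the correlation was 0.865 to 0.933 within a line and −0.695 to −0.171 between lines. With 1 array per line and treatment, this subtraction itself pushes values between lines below 0, so their sign is no check of the pairing. Slides and scan dates were not used here, so no batch was tested. All members were named, and from each list the genes past the test against untreated cells, at most 5 in each direction and comparison; PIR and the NADPH oxidase genes between the inhibitors were added after their values were seen. The members and lists were chosen with earlier results of these data known. The alternatives tried are given in the closing section. Sequences are from RefSeq.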

Additional observations from a re-analysis of the deposited data

How the results depend on the processing

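Of 459 values of the 9 genes under alternative settings, 413 kept their direction and side of the threshold, 24 lost a call, 13 gained one and 9 changed sign, of which 0 belonged to a called result. Of the 9 genes, the count higher with SAHA was 1 in place of 0 (TXNRD1) with the authors' deposited log2 values, an offset of 50, probes detected on all 9 arrays or an intensity trend, and ran from 0 to 1 with a line left out (SRXN1 without K562). Without the line term, 1 gene was lower with SAHA (NQO1) in place of 3, 0 lower with MS-275 in place of 1, and between the inhibitors 0 higher in place of 1 and 1 lower in place of 2; over all genes that setting called 60 lower with SAHA in place of 1323, 0 lower with MS-275 in place of 838, and 58 higher and 14 lower between the inhibitors in place of 1506 and 1143. With a line left out, 0 genes were lower with MS-275 in each case (0 to 0), while over all genes the count ran from 0 to 104 in place of 838, and 0 of the 9 were higher with SAHA than with MS-275 (0 to 0). With equal medians the log2 change was −0.16 for NQO1 with MS-275, −0.051 for TXN with SAHA, −0.042 for TXN with MS-275 and −0.0096 for TXN between the inhibitors. Leaving out a line gave ranges of −0.21 to 0.12 for HMOX1 and −0.44 to 0.053 for SRXN1 between the inhibitors, of −0.55 to 0.043 for GCLC and −0.020 to 0.056 for TXN with MS-275, and of −0.0037 to 0.089 for TXN between the inhibitors. HMOX1 has no value with probes detected on all 9 arrays. The cause of these shifts was not tested. The labels number every array replicate 1, so arrays were paired by cell line, and the fit without the line term is the fit with no replicate block. Signal over background limits HMOX1 in K562 and the second KEAP1 probe.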
